A study of Mus musculus with 12 samples.

Results

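The expression of 50 cell cycle and DNA replication genes was followed in TSEC, an immortalized murine line of liver sinusoidal endothelial cells (LSEC), on 12 Mouse Gene 2.0 ST arrays. The genes were given by name, and a gene was represented by the transcript annotated to its symbol alone, the one of highest mean over the 12 arrays where there were several. Of the 50 genes, 48 had such a transcript, out of 13556 genes with a transcript of 1 symbol and 26076 transcripts in all. No transcript annotated to 1 symbol matched Ccnb1, and Ccne2 was matched only on a transcript shared with Ints8, so neither has a value here. All 48 measured genes exceeded the presence threshold of 4.5 (log2) on all 12 arrays. The table holds only transcripts above that threshold on at least 1 array, so this says nothing of the 2 unmatched genes. They were grouped by role into 6 G1/S regulators, 16 S phase genes (origin licensing, replication fork and nucleotide supply), 24 mitotic genes, and the proliferation markers Mki67 and Top2a.

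The arrays fall into 4 groups of 3, a layout that crosses free fatty acids (FFA) with INT-767. FFA cells were given 0.66 mM oleic acid with 0.33 mM palmitic acid, INT-767 cells 30 µM of the bile acid receptor agonist INT-767, which acts on FXR and TGR5, FFA+INT-767 cells both, and Media cells neither, all for 8 h as the sample labels state. The methods of the study give a lower oleic acid dose and a longer time, and which applies to these arrays is not known. All 4 groups are cultures of a single established line, and the way in which it was immortalized is not given in the sources used here.

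The cell cycle is run by waves of transcription and of protein destruction. D-type cyclins respond to growth signals and, with Cdk4 and Cdk6, release E2F factors from the retinoblastoma protein, which switches on cyclin E and the S phase genes. Cdc6 and Cdt1 load the Mcm2 to Mcm7 helicase ring onto origins, and Cdc45 and the GINS complex then turn it into a moving fork helicase with Pcna as the sliding clamp of the polymerases. Later the DREAM and B-Myb/FoxM1 complexes control cyclins A and B, Cdk1, the polo and Aurora kinases, kinetochore proteins and mitotic motors, and Cdc20 and Ube2c direct the anaphase-promoting complex to destroy cyclins. In bulk RNA from an unsynchronized culture, fewer cells in a phase and less RNA per cell cannot be told apart.

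Checks of the arrays come first, since they bear on the results. In all, 13 targets of the fatty acid receptor PPAR were read as a check of FFA exposure. Within replicate numbers 1 and 3 the median target stood 0.74 and 0.81 higher (log2) in FFA than in Media, but only 0.03 higher in number 2, while the median in INT-767 differed from Media by −0.08 and −0.14 in numbers 1 and 3 and by 0.76 in number 2. The arrays labelled FFA replicate 2 and INT-767 replicate 2 thus go against their labels in this readout. The labels were kept, and each comparison that holds these arrays was also run without them. These runs gave counts called, the S phase and mitotic medians, and the log2 fold changes of members of smallest p. Where such a result described here moved by over 1.5 times, the value is given beside it. The other gene lists, markers, overlaps, spans, counts of direction and medians of single arrays were not run without these arrays. Of 23 endothelial markers 9 were matched, with Kdr, Eng, Flt1, Flt4 and Nos3 among them and Pecam1, Cdh5, Tek, Stab2 and Lyve1 not among them. Of these 9, 5 exceeded 4.5 (log2) on every array, Flt1 and Flt4 among them. Kdr and Nos3 exceeded it on only 3 arrays each, Mrc1 on 2 and Eng on 1. The 9 endothelial markers summed to between 8.44 and 9.13 (log2) on any array. The summed level of 7 stromal genes was 11.30 to 12.67 (log2) on the number 1 arrays, 9.48 to 10.48 on number 2 and 10.22 to 10.70 on number 3. Its part in the differences between replicate numbers was not tested. The 4 hepatocyte, 3 macrophage and 1 lymphocyte genes that were matched summed to at most 8.02, 7.88 and 4.73 on any array.

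The S phase and mitotic genes also differed in the letters of their promoters, which the choice of genes did not use. The E2F and CHR letters are sites of factors named above for these classes, so that contrast was known beforehand and is no independent finding. RefSeq promoter windows on GRCm38.p6, from 250 bases before to 50 after a gene's start, were matched for 37 of the 48 genes, and the first listed window stood for a gene. A CCAAT box (CCAAT), read by NF-Y, was found on either strand in 28 of 37 (75.7%), against 37.9% of 27025 genes. A CHR element (TTTGAA or TTCGAA), the site of the DREAM and MuvB complexes, lay in 14 of 18 mitotic windows (77.8%) and 3 of 13 S phase windows (23.1%), against 19.4% of all genes. Each of the 19 windows with a CHR match, Mki67 and Top2a included, also held a CCAAT match, a combination present in 7.7% of all genes. An E2F site (TTTGGCGC, TTTCGCGC, TTTCCCGC or TTCCCGCC, of which the last pair can overlap) lay in 7 of 13 S phase windows (53.8%) and 1 of 18 mitotic windows (5.56%), that of Cdk1, against 3.57% of all genes. These are matches of letters and not measured binding. The 27025 genes were all those with a window, whether or not they had a value on these arrays.

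The windows of 3 genes are printed because they carry these patterns in genes called between the replicate numbers: an E2F site with a CCAAT box in E2f2 (chr4:136172024-136172323, plus strand), 3 CCAAT boxes in Mcm10 (chr2:5012742-5013041, minus strand), and a CCAAT box with a CHR in Espl1 (chr15:102296043-102296342, plus strand). Capitals mark the matches.
E2f2: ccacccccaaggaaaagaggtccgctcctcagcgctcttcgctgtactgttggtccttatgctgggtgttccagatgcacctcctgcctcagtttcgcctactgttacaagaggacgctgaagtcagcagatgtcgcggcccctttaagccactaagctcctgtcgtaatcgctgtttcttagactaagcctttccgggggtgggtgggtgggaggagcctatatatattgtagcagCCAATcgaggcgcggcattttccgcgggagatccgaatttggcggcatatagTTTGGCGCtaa
Mcm10: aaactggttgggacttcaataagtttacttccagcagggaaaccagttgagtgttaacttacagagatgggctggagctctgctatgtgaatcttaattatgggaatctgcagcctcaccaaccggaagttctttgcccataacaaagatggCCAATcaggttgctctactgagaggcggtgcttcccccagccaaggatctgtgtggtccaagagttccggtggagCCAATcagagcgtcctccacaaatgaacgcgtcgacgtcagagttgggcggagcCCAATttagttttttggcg
Espl1: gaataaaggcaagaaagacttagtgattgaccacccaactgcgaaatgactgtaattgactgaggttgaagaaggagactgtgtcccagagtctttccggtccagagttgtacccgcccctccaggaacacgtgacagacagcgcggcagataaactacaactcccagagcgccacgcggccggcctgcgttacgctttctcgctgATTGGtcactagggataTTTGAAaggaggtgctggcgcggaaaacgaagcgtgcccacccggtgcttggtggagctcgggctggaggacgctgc
In the windows of Birc5, Mad2l1 and Ccne1, which were called as well, none of these letters was found.

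Of the proliferation markers, Mki67 varied little with treatment or replicate number. The treatment means of Top2a spanned 0.17, against a median of 0.12 over the 48 members, and its replicate number means 0.05. Mki67, the classical marker of cycling cells, measured 11.07, 11.08 and 10.99 in FFA, 11.10, 10.99 and 10.97 in INT-767, 11.08, 11.04 and 11.12 in FFA+INT-767 and 11.05, 11.13 and 11.00 in Media (log2, replicate numbers 1 to 3). The 4 groups overlapped within a range of 0.16 over all 12 arrays. Top2a, the topoisomerase that untangles replicated chromosomes, measured 11.39, 11.41 and 11.44 in FFA, 11.26, 11.40 and 11.31 in INT-767, 11.40, 11.33 and 11.33 in FFA+INT-767 and 11.28, 11.31 and 11.16 in Media, and its 3 FFA arrays lay above the 3 Media arrays. Pcna stood at 12.21, 12.19 and 12.24 in FFA, 12.21, 12.25 and 12.25 in INT-767, 12.19, 12.32 and 12.25 in FFA+INT-767 and 12.15, 12.22 and 12.23 in Media, and its 12 values spanned 0.17. Mcm6 had the narrowest range of the 48 genes, 0.11. The widest range belonged to Ccnd1, 2.06, followed by Ccne1, 1.33, and E2f2, 0.93, all G1/S regulators.

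**Figure D1:**
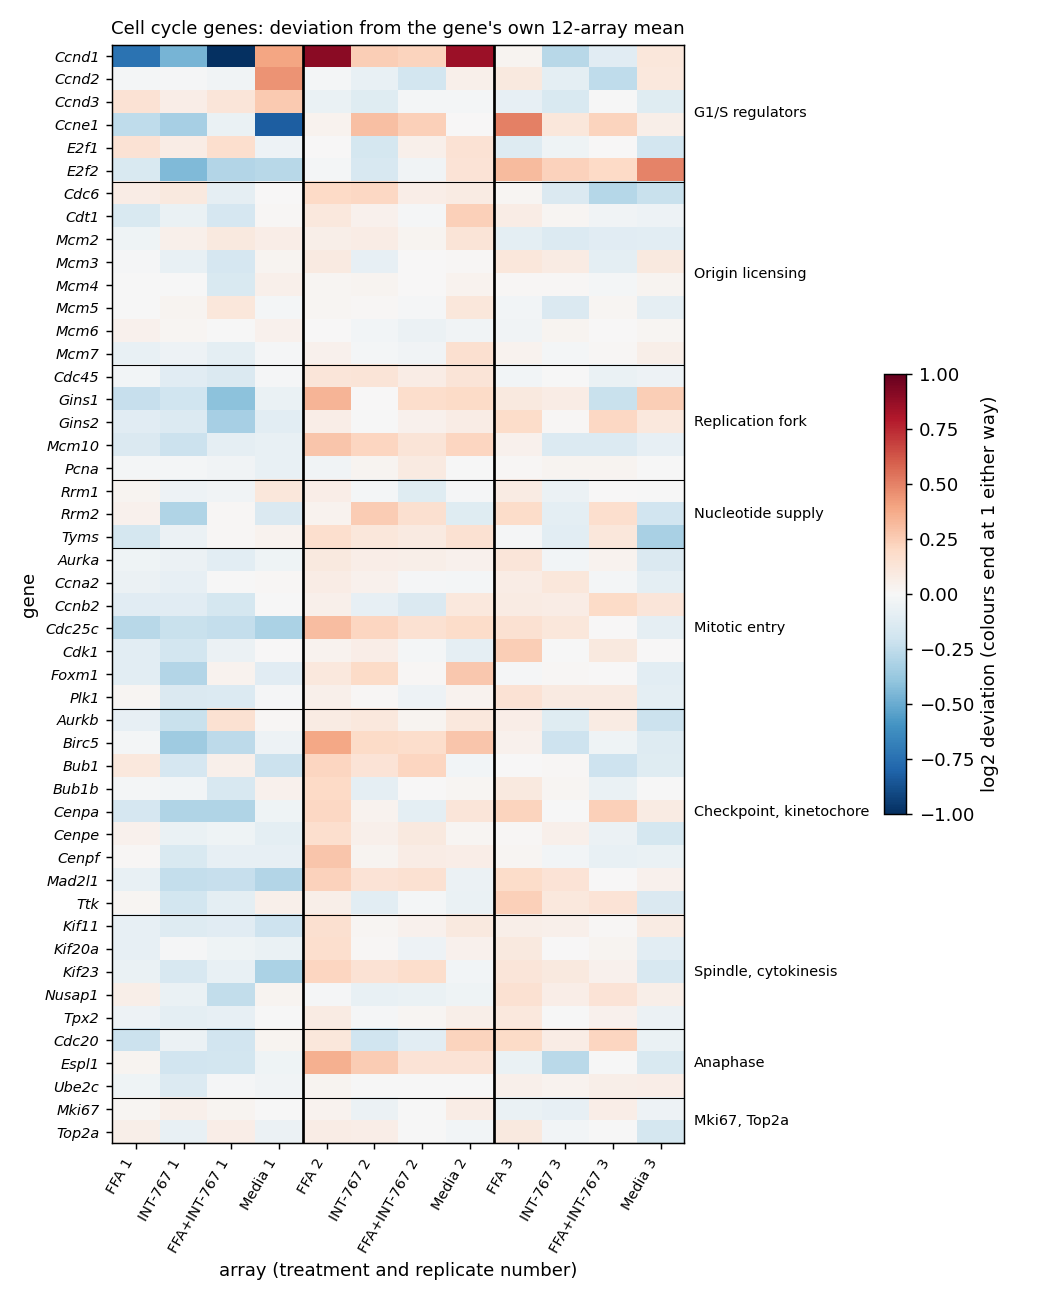
Deviation of each of 48 genes (rows, grouped by role) from its own mean over 12 arrays, in log2 units, with the arrays in columns by replicate number and, within a number, FFA, INT-767, FFA+INT-767 and Media. Ccnd1 and Ccne1 show the strongest colours (ranges 2.06 and 1.33), and the number 1 arrays are paler or bluer than the others over most mitotic rows.

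The first question was whether FFA alter cell cycle genes in LSEC. In FFA against Media, 0 of 48 genes passed the test (limma, adjusted p under 0.05), as did 0% of 24838 transcripts, and the smallest adjusted p of a member was 0.9999. At an unadjusted p under 0.05 there were also 0 members, against 2.68% of transcripts. The mitotic genes leaned upward without any passing the test: 21 of 24 had a higher mean in FFA, with a median log2 fold change of 0.09, while 8 of 16 S phase genes were higher with a median of 0.01, and the median of all genes tested was 0.00. All 9 checkpoint and kinetochore genes were among those higher (median 0.13). Without the array labelled FFA replicate 2 the mitotic median was 0.04, the S phase median −0.02, and 1 member had an unadjusted p under 0.05. Within replicate numbers 1, 2 and 3, the mitotic median differed from Media by 0.00, 0.10 and 0.17.

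Rrm2, the regulated subunit of ribonucleotide reductase, had the smallest p in this comparison. It measured 10.82, 10.81 and 10.96 in FFA, 10.48, 11.03 and 10.68 in INT-767, 10.79, 10.93 and 10.94 in FFA+INT-767 and 10.63, 10.65 and 10.58 in Media. All 3 FFA arrays exceeded all 3 Media arrays, with means of 10.86 ± 0.08 and 10.62 ± 0.04 (SD, n = 3 each) and a log2 fold change of 0.24 (SE 0.11, 95% interval −0.01 to 0.49, adjusted p = 0.9999 in limma). Bub1, a kinase of the spindle checkpoint, measured 10.67, 10.78 and 10.57 in FFA, 10.40, 10.70 and 10.58 in INT-767, 10.62, 10.78 and 10.36 in FFA+INT-767 and 10.35, 10.54 and 10.45 in Media. Its FFA values also lay above the Media values (log2 fold change 0.23, SE 0.12). Kif23, a motor of the central spindle needed for cytokinesis, measured 10.37, 10.65 and 10.56 in FFA, 10.27, 10.58 and 10.53 in INT-767, 10.36, 10.61 and 10.48 in FFA+INT-767 and 10.12, 10.40 and 10.27 in Media. The groups overlapped, yet within each replicate number FFA stood above Media, by 0.25, 0.24 and 0.28. In all, 3 members lay higher and 1 lower in FFA with no overlap (Rrm2, Bub1 and Top2a higher, Mcm4 lower with a log2 fold change of −0.03), 4 of 48 against 7.01% of transcripts (3.6% higher and 3.41% lower).

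**Figure D2:**
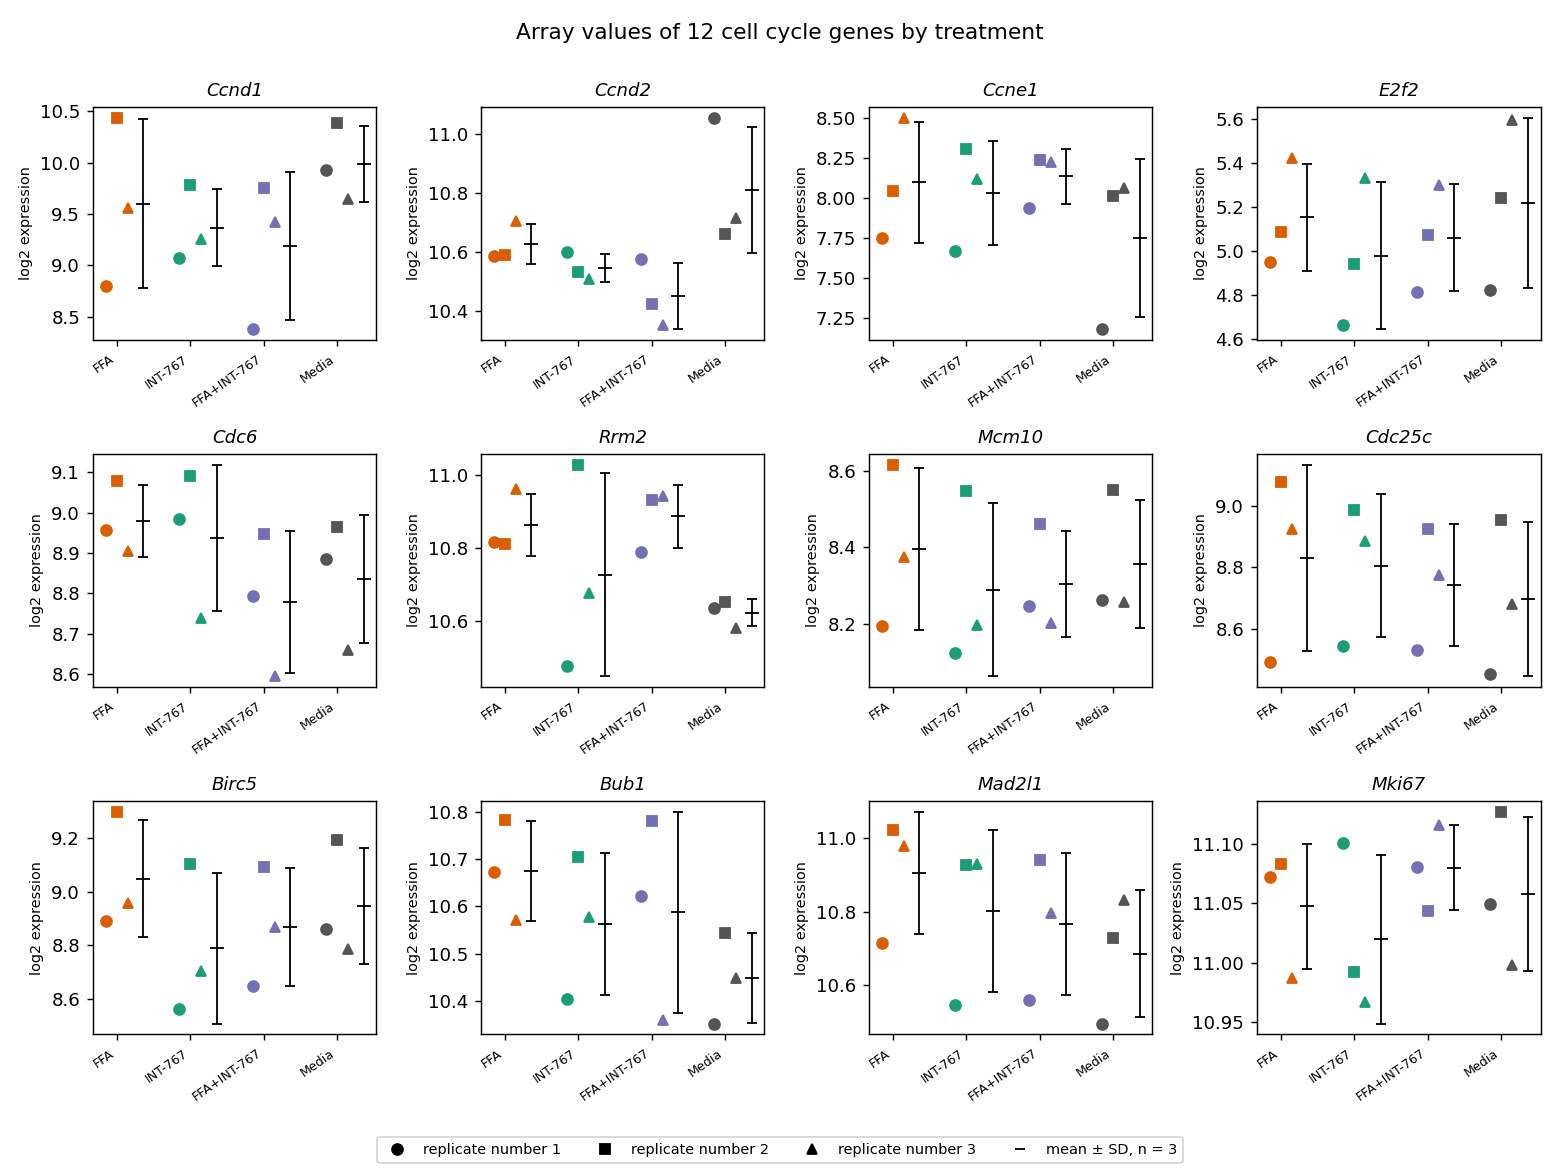
Array values (log2 expression) of 12 genes in FFA, INT-767, FFA+INT-767 and Media, with circles, squares and triangles for replicate numbers 1, 2 and 3 and a dash with bars for the mean ± SD of 3 arrays. Rrm2 is higher in FFA than in Media on all arrays, Ccnd1 is spread over 2.06 log2 units, and in Cdc25c the number 1 circles are lowest in every group.

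INT-767 alone was compared with Media to see what the bile acid receptor agonist does without FFA. None of the 48 genes passed the test (0% of 25144 transcripts, limma), and 1 had an unadjusted p under 0.05, against 2.92% of transcripts. That gene was Ccnd1, cyclin D1, the growth factor sensor of G1. Ccnd1 measured 8.79, 10.44 and 9.56 in FFA, 9.07, 9.78 and 9.26 in INT-767, 8.38, 9.76 and 9.42 in FFA+INT-767 and 9.93, 10.39 and 9.65 in Media. INT-767 averaged 9.37 ± 0.37 and Media 9.99 ± 0.37 (SD, n = 3 each), a log2 fold change of −0.62 (SE 0.25, 95% interval −1.22 to −0.01, unadjusted p = 0.046, adjusted p = 0.9997 in limma). The groups overlapped, and INT-767 was below Media within each replicate number, with differences of −0.86, −0.60 and −0.39. Without the array labelled INT-767 replicate 2 the log2 fold change was −0.83. No member had an unadjusted p under 0.05 without Media replicate 1 or 2 or without INT-767 replicate 1 or 3.

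Ccnd2, cyclin D2, had the next smallest p. It measured 10.59, 10.59 and 10.71 in FFA, 10.60, 10.53 and 10.51 in INT-767, 10.57, 10.42 and 10.35 in FFA+INT-767 and 11.06, 10.66 and 10.72 in Media. Every INT-767 array lay below every Media array, with means of 10.55 ± 0.05 and 10.81 ± 0.21 (SD, n = 3 each), a log2 fold change of −0.26 (SE 0.14) and an adjusted p of 0.9997 (limma). Media replicate 1 was the highest of the 12 arrays, and without it the log2 fold change was −0.14. With Ccnd2, the lower members without overlap were Mcm7 (−0.10) and Rrm1 (−0.08), 3 of 48 members against 7.08% of transcripts (4.05% lower), and no member was higher without overlap (3.03% of transcripts). Among the G1/S regulators 5 of 6 had a lower mean in INT-767 (median −0.17), against medians of −0.04 for the S phase genes, −0.02 for the mitotic genes and −0.02 for all genes tested. Without the array labelled INT-767 replicate 2 the S phase median was −0.07.

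The combined treatment was set against each of its components and against Media. These comparisons share arrays with those above, so their agreement or mirror image is not independent. In FFA+INT-767 against INT-767, 0 of 48 members passed (0% of 25041 transcripts), 0 had an unadjusted p under 0.05 (2.14%) and 0 were free of overlap (5.58%). The smallest p fell to Aurkb, the kinase of the chromosomal passenger complex, which measured 10.53, 10.70 and 10.69 in FFA, 10.40, 10.72 and 10.50 in INT-767, 10.77, 10.65 and 10.70 in FFA+INT-767 and 10.63, 10.73 and 10.40 in Media. Its log2 fold change was 0.16 (SE 0.12), with 0.25 without the array labelled INT-767 replicate 2 and 0.09 without INT-767 replicate 1. The next was Cdc6, the licensing factor, which measured 8.96, 9.08 and 8.91 in FFA, 8.98, 9.09 and 8.74 in INT-767, 8.79, 8.95 and 8.59 in FFA+INT-767 and 8.88, 8.97 and 8.66 in Media. Within every replicate number Cdc6 was lower in FFA+INT-767 than in INT-767, with differences of −0.19, −0.14 and −0.14, although the groups overlapped. Its log2 fold change of −0.16 became −0.08 without the array labelled INT-767 replicate 2 and −0.07 without FFA+INT-767 replicate 3, and −0.26 and −0.24 without INT-767 replicate 3 and FFA+INT-767 replicate 2. E2f1, an activating E2F, measured 8.35, 8.21 and 8.07 in FFA, 8.28, 8.03 and 8.17 in INT-767, 8.37, 8.25 and 8.21 in FFA+INT-767 and 8.15, 8.35 and 8.02 in Media, with a log2 fold change of 0.12 (SE 0.12), 0.06 without the array labelled INT-767 replicate 2, 0.07 without FFA+INT-767 replicate 1 and 0.18 without INT-767 replicate 1.

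In FFA+INT-767 against FFA, no member passed the test (0% of 24824 transcripts) and none had an unadjusted p under 0.05 (4.73%). The mitotic genes leaned the other way from FFA against Media, with which this comparison shares the FFA arrays: 21 of 24 had a lower mean in FFA+INT-767 (median −0.08), against −0.06 for S phase genes and −0.04 for all genes tested. Without the array labelled FFA replicate 2 the mitotic median was −0.03 and the S phase median −0.02. The smallest p belonged to Ccnd2 (log2 fold change −0.18, SE 0.11), Cdc6 (−0.20, SE 0.13) and Bub1b, the checkpoint kinase BubR1 (−0.17, SE 0.11). Without FFA+INT-767 replicate 3 the Cdc6 value was −0.11. Bub1b measured 9.60, 9.81 and 9.71 in FFA, 9.59, 9.52 and 9.64 in INT-767, 9.46, 9.62 and 9.55 in FFA+INT-767 and 9.66, 9.64 and 9.62 in Media, and its groups overlapped. Only Ccnd2 and Rrm1 were lower without overlap, 2 of 48 against 9.78% of transcripts (5.17% higher and 4.6% lower).

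In FFA+INT-767 against Media, no member passed (0% of 25268 transcripts), and 2 of 48 had an unadjusted p under 0.05, against 5.38%. These were Ccnd2, lower on every FFA+INT-767 array with means of 10.45 ± 0.11 and 10.81 ± 0.21 (log2 fold change −0.36, SE 0.15), and Rrm2, higher on every FFA+INT-767 array with means of 10.89 ± 0.09 and 10.62 ± 0.04 (0.26, SE 0.11; SD, n = 3 each, adjusted p = 0.916 for both in limma). Ccnd2 was −0.24 without Media replicate 1. The count of 2 fell to 0 without Media replicate 1 or 3 or FFA+INT-767 replicate 3, and to 1 without Media replicate 2 or FFA+INT-767 replicate 1. Ccnd1 fell short of that limit despite the largest fold change, −0.80 (SE 0.37), and was lower within each replicate number, with differences of −1.55, −0.63 and −0.23. Without FFA+INT-767 replicate 1 its log2 fold change was −0.40. Mcm3 and Mcm4 were lower and Top2a higher without overlap, which with Ccnd2 and Rrm2 made 5 of 48 against 10.6% of transcripts (5.79% higher and 4.76% lower). Mcm3 measured 10.08, 10.18 and 10.20 in FFA, 10.02, 10.01 and 10.17 in INT-767, 9.92, 10.10 and 9.99 in FFA+INT-767 and 10.12, 10.11 and 10.19 in Media.

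**Figure D3:**
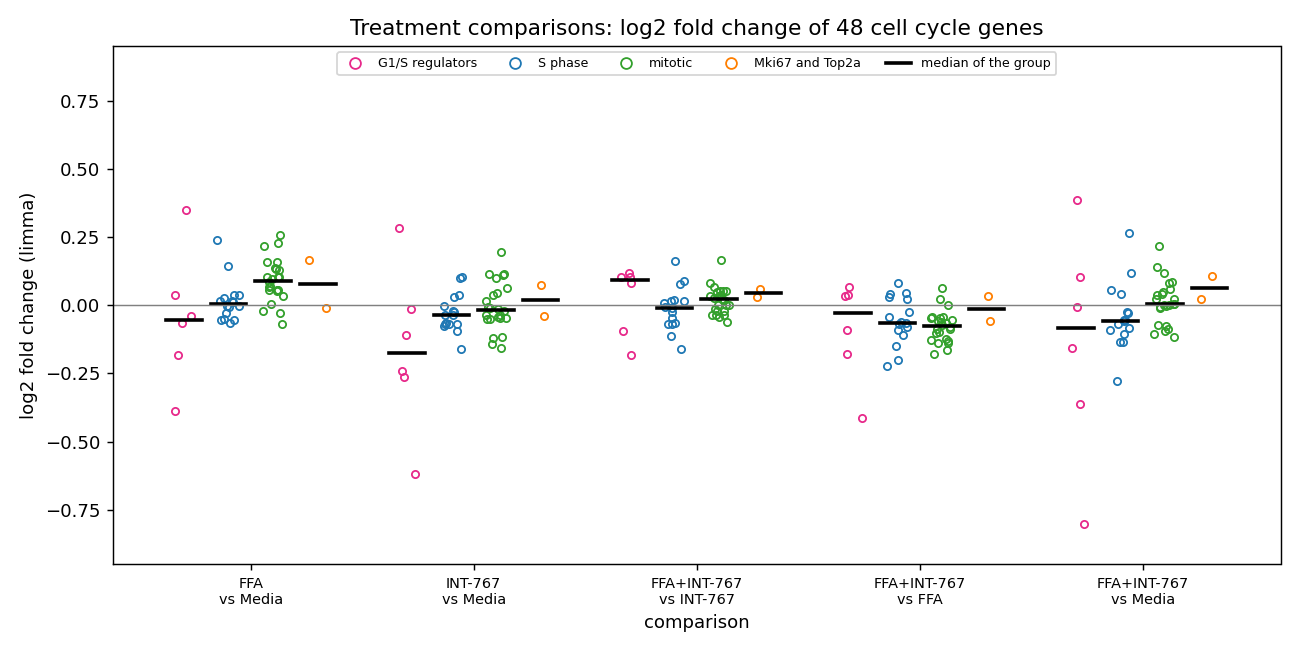
Log2 fold change of 48 genes (open circles, coloured by group) in 5 treatment comparisons, with a black line at the median of a group; no gene has an adjusted p under 0.05. The median furthest from 0 is −0.17, of the G1/S regulators in INT-767 against Media, and the lowest points are Ccnd1 at −0.62 in INT-767 and −0.80 in FFA+INT-767 against Media.

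Over all 12 arrays, with the other agent as a factor, 0 members passed for FFA (0% of 26076 transcripts) and 0 for INT-767 (0%). Without the arrays that go against their labels, 0 members and 3 transcripts were called for FFA. Rrm2 was 0.20 higher with FFA (SE 0.09, unadjusted p = 0.044, 2.4% of transcripts under 0.05), and Ccnd2 was lower with INT-767, with a log2 fold change of −0.22 (SE 0.08, unadjusted p = 0.0168, adjusted p = 0.777 in limma), where 6.27% of transcripts were under 0.05. The interaction of FFA and INT-767 was not called for any member (0%) and 0 had an unadjusted p under 0.05 (2.69%). Its smallest p belonged to Cdc6 (−0.30, SE 0.19), Kif23 (−0.24, SE 0.18) and the kinetochore motor Cenpe (−0.17, SE 0.13). Without the arrays labelled FFA replicate 2 and INT-767 replicate 2 these values were −0.18, −0.12 and −0.11. Cenpe measured 9.84, 9.97 and 9.81 in FFA, 9.74, 9.85 and 9.86 in INT-767, 9.76, 9.90 and 9.74 in FFA+INT-767 and 9.70, 9.82 and 9.63 in Media, all 12 arrays within 0.34.

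The intervals give a range of change for each member taken singly, from the fits without a replicate block and with all labels kept. They were not computed with the block or without the arrays that go against their labels. The 95% interval of the log2 fold change lay between −1 and 1, a 2-fold change either way, for 46 of 48 members in FFA against Media and for 47 of 48 in each of the other 4 comparisons of 6 arrays. The exceptions were Ccnd1 in all 5 and Ccne1 in FFA against Media. Between −0.5 and 0.5 lay 39 to 41 of 48.

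Related genes off the list did not pass in the treatments either. None of 44 other replication genes, 62 other mitotic genes, 28 further cycle regulators or 15 p53 targets passed in FFA or INT-767 against Media. The 28 regulators were cell cycle inhibitors, pocket proteins, E2F factors and their partners, Cdk2, Cdk4, Cdk6, Cdc25a, Wee1, Mybl2 and Lin genes. Cdc25a was also among the 44 replication genes, and Cdkn1a among both the regulators and the p53 targets. The other mitotic genes had a median of 0.08 in FFA against Media (52 of 62 higher) and 0.00 in INT-767 against Media (30 of 62 higher), and the other replication genes 0.04 (35 of 44 higher) and −0.02 (19 of 44). These values come from the same arrays as those of the members and are not independent of them. They were not computed without the arrays that go against their labels. Cdkn2b, which encodes the Cdk4 and Cdk6 inhibitor p15, had the smallest p of these lists and measured 7.84, 8.23 and 7.70 in FFA, 8.07, 7.64 and 7.95 in INT-767, 7.53, 7.91 and 7.82 in FFA+INT-767 and 8.37, 8.41 and 8.70 in Media. All 3 INT-767 and all 3 FFA arrays lay below all 3 Media arrays, with log2 fold changes of −0.57 in FFA (SE 0.18) and −0.61 in INT-767 (SE 0.16) and adjusted p of 0.9999 and 0.9997 (limma). The kinase gene Plk2, a p53 target, measured 8.70, 8.73 and 8.85 in FFA, 8.81, 8.59 and 8.72 in INT-767, 8.13, 8.42 and 8.72 in FFA+INT-767 and 9.74, 8.68 and 10.12 in Media, with log2 fold changes of −0.75 in FFA (SE 0.35) and −0.80 in INT-767 (SE 0.35), and the same adjusted p. Media replicates 1 and 3 stood above all other arrays, whereas in number 2 FFA was above Media.

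Most members, like most genes on the arrays, differed more between the replicate numbers than between the treatments. The highest and lowest of the 3 replicate number means lay further apart than the highest and lowest of the 4 treatment means in 33 of 48 members (68.8%; medians of 0.18 and 0.12), and in 64.0% of all genes. A test of any difference between numbers, with treatment as a factor, called 14 of 48 members (limma moderated F test, adjusted p under 0.05), against 20.4% of transcripts and 26.9% of genes of 1 symbol. The members' share, 29.2%, was close to that of other genes of 1 symbol. The 14 comprised 4 G1/S regulators (E2f2, Ccne1, Ccnd1, Ccnd3), 4 S phase genes (Mcm10, Cdc6, Gins1, Gins2) and 6 mitotic genes (Cdc25c, Birc5, Mad2l1, Espl1, Kif23, Cenpa). Without the arrays labelled FFA replicate 2 and INT-767 replicate 2, 1 member and 1670 transcripts were called, against 5323 transcripts with them. Leaving out 1 array gave 5 members (FFA replicate 1 or 2, INT-767 replicate 1), 7 (INT-767 replicate 2 or 3), 8 (FFA+INT-767 replicate 1 or 2), 9 (any Media array or FFA replicate 3) or 10 (FFA+INT-767 replicate 3). Over all transcripts, 3055 to 4595 were called with 1 array left out. The labels call the replicates biological and the methods speak of wells, so a p-value here speaks for the scatter of such cultures alone.

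Stromal genes and some endothelial markers moved with the replicate numbers too. The same test called 6 of the 7 stromal genes, 5 of 9 endothelial and 1 of 4 hepatocyte markers, and 0 of 3 macrophage and 0 of 1 lymphocyte markers. These counts stand beside 26.9% of all genes of 1 symbol. Dcn, the matrix proteoglycan decorin, had the smallest p among them and measured 9.50, 5.73 and 8.26 in FFA, 9.48, 5.20 and 8.38 in INT-767, 8.63, 4.97 and 8.43 in FFA+INT-767 and 10.12, 5.81 and 8.83 in Media. It was 2.48 higher in number 1 than in the others (SE 0.16, adjusted p = 0.000234, limma), and its number 2 arrays were the lowest in every treatment. Col1a1, a chain of type I collagen, was 1.40 higher in number 1 (SE 0.12, adjusted p = 0.000698, limma).

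Most of the 24 mitotic genes on the list had their lowest mean in the same replicate number. The lowest number mean was that of number 1 in 20 of 24 mitotic genes and 10 of 16 S phase genes, 33 of 48 members in all, against 39.5% of all genes. The highest was that of number 2 in 16 of 24 mitotic and 12 of 16 S phase genes, 30 of 48 in all, against 35.2% of all genes. On the single arrays the median deviation of the mitotic genes from their means was −0.05 (FFA), −0.15 (INT-767), −0.10 (FFA+INT-767) and −0.04 (Media) in number 1. It was 0.14, 0.04, 0.02 and 0.05 in number 2, and 0.10, 0.03, 0.03 and −0.09 in number 3. The S phase medians ran from −0.09 to −0.0045 in number 1, from 0.02 to 0.10 in number 2 and from −0.03 to 0.03 in number 3. For all genes the number 1 medians were −0.0093 (FFA), −0.04 (INT-767), −0.04 (FFA+INT-767) and 0.0042 (Media). The S phase and mitotic genes thus stood on the same side of 0 on 10 of 12 arrays, and INT-767 and FFA+INT-767 replicate 3 were the other 2, at most 0.03 from 0 in either class.

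**Figure D4:**
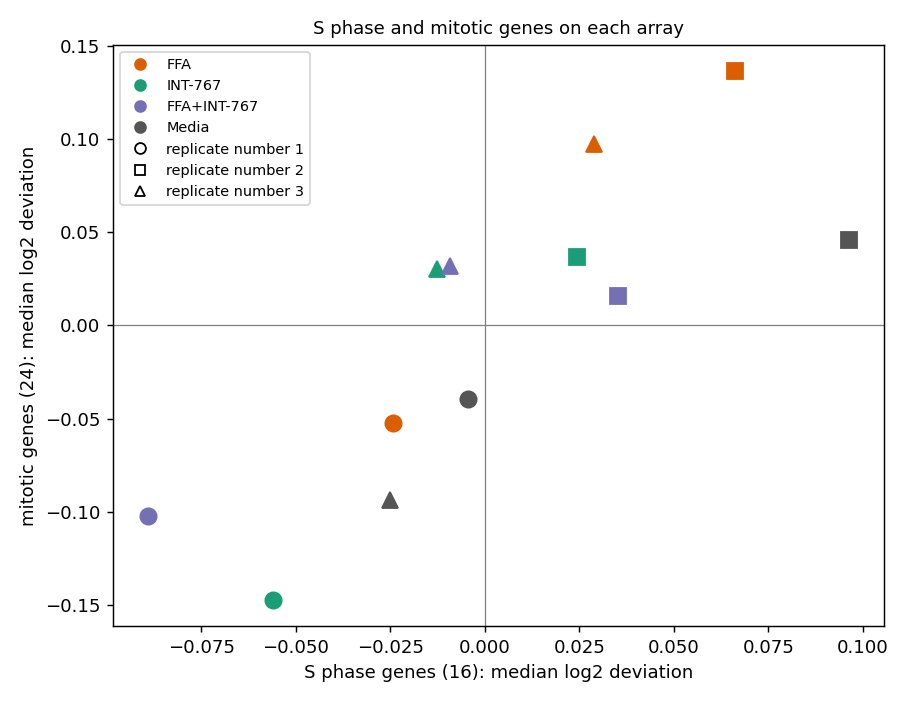
Median log2 deviation of the 24 mitotic genes (vertical axis) against that of the 16 S phase genes (horizontal axis) on each of 12 arrays, coloured by treatment and shaped by replicate number. All 4 number 1 arrays lie below 0 on both axes and all 4 number 2 arrays above 0.

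Replicate number 1 against 2 and 3 gave 12 called members, 11 lower and 1 higher, against 14.4% of transcripts, 7.83% lower and 6.57% higher (18.6% of genes of 1 symbol in both directions). The 4 number 1 arrays lay apart from the other 8 in 7 members, against 6.93% of transcripts. All 24 mitotic genes had a lower mean in number 1 (median −0.11), as had 11 of 16 S phase genes (median −0.08), where the median of all genes was −0.02. Over 21 alternative settings the mitotic median ran from −0.15 to −0.06 and the S phase median from −0.09 to −0.04. The called mitotic genes were Cdc25c, Mad2l1, Kif23, Birc5, Cenpa and Kif11, the called S phase genes Gins1 and Gins2, and the called G1/S regulators E2f2, Ccne1 and Ccnd1, lower, and Ccnd3, higher. Leaving out FFA replicate 1 left 3 called members, INT-767 replicate 1 left 4, INT-767 replicate 3 left 5, FFA+INT-767 replicate 1 or FFA replicate 2 left 6, and Media replicate 1 or FFA replicate 3 left 7. Without the arrays labelled FFA replicate 2 and INT-767 replicate 2 there were 3, E2f2, Cdc25c and Ccne1. Over all transcripts 1439 were then called, against 3754 with these arrays, and 1555 to 3980 with any 1 array left out.

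Cdc25c, the phosphatase that activates Cdk1 at mitotic entry, had the smallest p. It measured 8.49, 9.08 and 8.92 in FFA, 8.54, 8.99 and 8.88 in INT-767, 8.53, 8.92 and 8.77 in FFA+INT-767 and 8.45, 8.95 and 8.68 in Media. The number 1 arrays were the lowest in every treatment and the 4 of them lay below the other 8, a log2 difference of −0.39 (SE 0.06, adjusted p = 0.00429, limma), and the call held in all 21 alternative settings. E2f2, an activating E2F, measured 4.95, 5.09 and 5.42 in FFA, 4.66, 4.94 and 5.33 in INT-767, 4.81, 5.07 and 5.30 in FFA+INT-767 and 4.82, 5.24 and 5.59 in Media. In every treatment its values were lowest in number 1 and highest in number 3, with log2 differences of −0.44 for number 1 against the others (SE 0.06, adjusted p = 0.00447) and 0.46 for number 3 against the others (SE 0.06, adjusted p = 0.00456, limma). Both calls held in all 21 settings, although E2f2 lies near the 4.5 threshold. Mad2l1, the checkpoint protein that holds back Cdc20, measured 10.71, 11.02 and 10.98 in FFA, 10.55, 10.93 and 10.93 in INT-767, 10.56, 10.94 and 10.80 in FFA+INT-767 and 10.50, 10.73 and 10.83 in Media, lowest on the number 1 array in every treatment (−0.31, SE 0.06, adjusted p = 0.00933, limma).

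Ccne1, which encodes cyclin E1, the partner of Cdk2 at S phase entry, measured 7.75, 8.04 and 8.50 in FFA, 7.67, 8.31 and 8.12 in INT-767, 7.94, 8.24 and 8.23 in FFA+INT-767 and 7.18, 8.01 and 8.06 in Media. The 4 number 1 arrays were below the other 8, by a log2 difference of −0.55 (SE 0.11, adjusted p = 0.013, limma). Ccnd1, whose values stand above, had a log2 difference of −0.74 in number 1 (SE 0.18, adjusted p = 0.0288, limma), although Media replicate 1 lay above several arrays of the other numbers. It lost its call in 9 of 21 settings. Ccnd3, cyclin D3, ran the other way, with means of 8.45 in number 1 and 8.23 in the others (0.22, SE 0.05, adjusted p = 0.0295, limma), and lost its call in 10 of 21. Of the other called genes, Ccne1 and Mad2l1 lost theirs in 1 setting each, Birc5, Gins1 and Kif23 in 7 each, Cenpa in 9, Gins2 in 10 and Kif11 in 14. The third D cyclin, Ccnd2, was not called for any replicate number.

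Replicate number 2 against 1 and 3 gave 7 called members, all higher, against 10.1% of transcripts (5.69% higher and 4.39% lower) and 14.1% of genes of 1 symbol. Its arrays lay apart from the others in 5 members, against 6.55% of transcripts. These 5 were Birc5, Mcm10, Espl1, Cdc45 and Cenpf, while the called genes were Birc5, Cdc25c, Mcm10, Espl1, Ccnd1, Cdc6 and Kif23. Over 21 alternative settings the call was lost in 1 for Birc5, 2 for Cdc25c, 3 each for Mcm10 and Espl1, 5 for Ccnd1, 15 for Cdc6 and 16 for Kif23. Birc5, survivin, the passenger complex subunit at the centromere, measured 8.89, 9.30 and 8.96 in FFA, 8.56, 9.10 and 8.70 in INT-767, 8.65, 9.09 and 8.87 in FFA+INT-767 and 8.86, 9.19 and 8.79 in Media. Its 4 number 2 arrays lay above the other 8, a log2 difference of 0.39 (SE 0.06, adjusted p = 0.00653, limma). Mcm10, which helps to start the fork helicase, measured 8.19, 8.62 and 8.38 in FFA, 8.12, 8.55 and 8.20 in INT-767, 8.25, 8.46 and 8.20 in FFA+INT-767 and 8.26, 8.55 and 8.26 in Media, with no overlap either (0.31, SE 0.06, adjusted p = 0.0121, limma). Espl1, the separase that cuts cohesin at anaphase, was 0.33 higher (SE 0.07, adjusted p = 0.0192, limma), with means of 8.17 in number 2 and 7.84 in the others. Ccnd1 was 0.84 higher (SE 0.18, adjusted p = 0.0232, limma). Without the arrays labelled FFA replicate 2 and INT-767 replicate 2, which are in number 2, 0 members were called (7 at an unadjusted p under 0.05) and 65 transcripts. Leaving out FFA replicate 2 alone left 1, INT-767 replicate 2 alone 2, and FFA+INT-767 replicate 2 alone 4.

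Replicate number 3 against 1 and 2 gave 2 called members, E2f2, higher, and Cdc6, lower (−0.24, SE 0.05, adjusted p = 0.0288, limma), against 10% of transcripts (5.22% higher and 4.8% lower) and 13.1% of genes of 1 symbol. Its arrays lay apart in 3 members, against 5.75% of transcripts. Cdc6, whose values stand above, averaged 8.72 on the number 3 arrays and 8.96 on the others and was also called higher in number 2 (0.21, SE 0.05, adjusted p = 0.0472, limma). It lost its call in 12 of 21 settings for number 3 and in 15 for number 2. E2f2 and Cdc6 thus differed in their order over the 3 numbers. Only 1 member, E2f2, was called without Media replicate 1 or 3, FFA replicate 2, any INT-767 array, any FFA+INT-767 array, or both arrays that go against their labels. Over all transcripts 815 were called without both, against 2612 with them, and 1099 to 2340 with any 1 array left out.

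**Figure D5:**
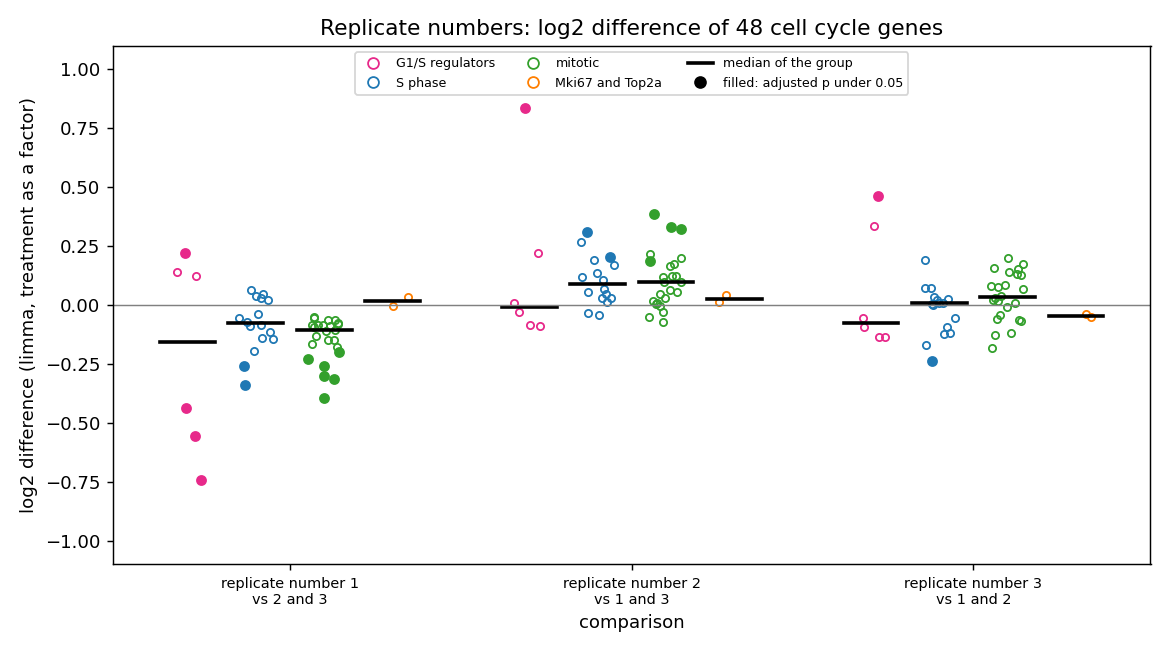
Log2 difference of 48 genes between 1 replicate number and the other 2, treatment taken into account, coloured by group, with filled points for an adjusted p under 0.05 and a black line at the median. In number 1 all 24 mitotic genes lie below 0 and 11 genes are called lower, and in number 2 the 7 called genes lie above 0.

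Other central genes of the cycle were not called for any replicate number. Cdk1, the kinase of mitotic entry, measured 11.58, 11.73 and 11.94 in FFA, 11.51, 11.76 and 11.69 in INT-767, 11.64, 11.68 and 11.79 in FFA+INT-767 and 11.70, 11.61 and 11.70 in Media. Plk1, the polo kinase, measured 10.93, 10.96 and 11.06 in FFA, 10.78, 10.93 and 11.01 in INT-767, 10.78, 10.87 and 11.01 in FFA+INT-767 and 10.90, 10.95 and 10.82 in Media. Cdc20, the activator of the anaphase-promoting complex, measured 10.63, 10.96 and 11.03 in FFA, 10.78, 10.64 and 10.92 in INT-767, 10.65, 10.73 and 11.06 in FFA+INT-767 and 10.87, 11.06 and 10.78 in Media. None of these passed a test, and their treatment groups overlapped in every treatment comparison. Of the helicase ring, Mcm2 measured 10.82, 10.93 and 10.77 in FFA, 10.92, 10.94 and 10.73 in INT-767, 10.96, 10.89 and 10.75 in FFA+INT-767 and 10.93, 10.99 and 10.76 in Media, with all 4 number 3 arrays below the other 8 (−0.17, SE 0.05, adjusted p = 0.0782, limma). Mcm5 measured 11.16, 11.19 and 11.14 in FFA, 11.20, 11.18 and 11.02 in INT-767, 11.28, 11.16 and 11.19 in FFA+INT-767 and 11.15, 11.28 and 11.08 in Media, overlapping in every comparison. Mki67, Top2a, Pcna and Mcm6 differed between number 1 and the others by 0.04, −0.0019, −0.06 and 0.04, with adjusted p between 0.520 and 0.987 (limma).

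Among the related lists, the test of any difference called 18 of 44 other replication genes, 7 of 62 other mitotic genes, 9 of 28 further cycle regulators, 4 of 15 p53 targets and 0 of 13 PPAR targets, beside 26.9% of all genes of 1 symbol. Tfdp2, an E2F dimerization partner, had the smallest p of these lists and measured 9.31, 9.31 and 9.90 in FFA, 9.41, 9.15 and 10.01 in INT-767, 9.10, 9.09 and 9.80 in FFA+INT-767 and 9.32, 9.37 and 9.97 in Media. It was 0.67 higher in number 3 (SE 0.06, adjusted p = 0.00186, limma). Cdca5, which encodes the cohesin protector sororin, was lower in number 1 with a log2 difference of −0.53 (SE 0.06, adjusted p = 0.00187, limma), and Pole2, a subunit of the leading strand polymerase, was 0.36 higher there (SE 0.05, adjusted p = 0.00548, limma).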

How the data were processed

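Total RNA of TSEC cells was measured on 12 Mouse Gene 2.0 ST arrays, 3 per group. The deposited values are log2 expression per transcript, which the authors computed in Partek 6.6. The study's methods name GC-RMA and the submitters' processing notes RMA, and which was used is not known. RMA-type processing sets the arrays to a common distribution, so a change shared by most genes would not be seen. The deposited table held 26076 transcripts, all with a maximum over 4.5. Genes were named from the GEO platform annotation, in which 14317 transcripts had 1 symbol, 1397 several and 10362 none, and genes of several symbols were not named.

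Each comparison was fitted with limma 3.58.1 in R 4.3.3 (moderated test) on transcripts over 4.5 in at least 1 array of the fit, without a replicate block, and adjusted by the Benjamini-Hochberg method over all of them. A call is an adjusted p under 0.05. The treatment comparisons used 6 arrays, the tests over FFA, INT-767, their interaction and the replicate numbers all 12, with treatment as a factor for the numbers. The scripts were tested on simulated data. Array values carry no sequencing depth. The number of arrays limits precision, as do the spread between cultures and levels near the threshold. The replicate numbers pair the samples: deviations from the group means correlated at 0.20 to 0.54 over all genes in 18 pairs of the same number and at −0.45 to 0.05 in 36 others.

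The members, gene lists and tests were chosen with earlier results of these data known. Any member could be named, and array values were given for a list of central genes and for the 3 members of smallest unadjusted p in each comparison, with the 3 genes of smallest p of each other list where described. Promoters were read for the 6 members with a window and the smallest p in the test between replicate numbers, and those without a match were not printed. The alternatives were other filters, scalings, priors and weights, the mean of a gene's transcripts, arrays left out, the block, all 12 arrays, no treatment term and an unmoderated test.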

Additional observations from a re-analysis of the deposited data

How the results depend on the processing

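No member was called in any treatment comparison under any setting run, and no called gene changed sign. Several medians near 0 changed sign, and for example with 1 array left out, the S phase median in FFA against Media ran from −0.02 to 0.03, the medians in INT-767 against Media from −0.07 to 0.02 (S phase) and from −0.04 to 0.05 (mitotic), and the mitotic median in FFA+INT-767 against INT-767 from −0.04 to 0.06. The mitotic interaction median, −0.09, was 0.01 without both arrays that go against their labels, and the S phase one, −0.02, was 0.05. An unmoderated test on the same arrays gave 3 members in FFA against Media, 0 in INT-767 against Media and 1 in FFA+INT-767 against Media at an unadjusted p under 0.05, and 0 after Benjamini-Hochberg adjustment. The replicate block, which uses the pairing of the numbers, gave 0 called members in each treatment comparison, and it changed no call. At an unadjusted p under 0.05 it gave 1 member in FFA against Media, 2 in INT-767 against Media, 5 for INT-767 over 12 arrays and 3 for the interaction. The share of all transcripts at that limit was not computed for any alternative setting. Counts of members at an unadjusted p in these settings therefore have no background to be read against. Leaving out an array gave 3 to 11 called members for replicate number 1 against 2 and 3, 1 to 6 for number 2 against 1 and 3, 1 to 2 for number 3 against 1 and 2, and 5 to 10 for any difference. Number 1 gave 7 after quantile normalization was applied again, and number 3 gave 4 with arrays shifted to the same median and 4 with an intensity trend and robust prior. Leaving out both arrays that go against their labels, an alternative chosen after seeing the data like those for the test of any difference, gave 3 members for number 1, 0 for number 2, 1 for number 3 and 1 for any difference. The cause was not tested, and fewer arrays were fitted. Over all settings the median log2 fold change of the mitotic genes in FFA against Media ran from 0.04 to 0.16. Levels of E2f2 near the 4.5 threshold and 3 arrays a group limit what could be seen.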
